A study of Mus musculus with 10 samples.

Results

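Glycosylphosphatidylinositol (GPI) anchors are glycolipids that fix proteins to the outer face of the cell membrane. The 10 genes described here encode enzymes and subunits that build the anchor and attach it to proteins: Piga, Pigc, Pigh, Pigp, Pigq and Dpm2 of the first step, Pigl and Pigm of later steps, and Pigk and Pigt of the transfer to protein. They are 10 of 13811 genes that entered the test, and their 25 probe sets, the array's sets of short probes for a transcript, are 25 of 45101. All probe sets with 1 of these symbols as their only gene symbol were taken. Pigc was selected on its measured fall in CTCF-depleted oocytes, so its difference is given as a description with no test, and the other 9 genes were listed for their place in the same pathway with results of this comparison already known.

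Signals came from mouse oocytes at the germinal vesicle stage, when the fully grown oocyte is held in prophase of meiosis I. A group of 5 arrays held RNA of oocytes labelled as wild type, and another group of 5 held RNA of oocytes labelled as depleted of CTCF, the zinc finger protein that binds insulators and shapes chromosome loops. The labels gave no strain, age or treatment, no method or promoter by which CTCF was depleted, and no number of oocytes or animals per array. Whether arrays of a group are separate biological samples is therefore unknown, and p-values refer only to their spread.

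The labelled cell type was checked against marker genes. All 10 oocyte markers, among them the zona pellucida genes, were above the control level on all 10 arrays, where the control level is the highest of 27 probe sets for Bacillus transcripts on the same array, a signal of 4.75 to 10.9. Their summed signal was 57414 to 63215 on wild-type and 52849 to 61795 on depleted arrays. Of 16 measured granulosa and cumulus markers, genes of the somatic cells around the oocyte, 10 were above that level on all arrays and 1, Wt1, on none, and their summed signal was 1060 to 1421 on depleted arrays. It was 2561 on wild-type replicate 2, where Gja1 (1017) and Inha (536) were higher than on any other array, and 1073 to 1211 on the other 4 wild-type arrays. Of the 15 tested granulosa and cumulus markers, 3 were called higher in depleted oocytes by limma (Fshr 2.01-fold, Nr5a2 1.24-fold and Ptgs2 2.66-fold) and 0 lower. Among all tested genes 7.26% were called higher and 9.12% lower. Ptgs2 was above the control level on 0 wild-type and 5 depleted arrays. The markers not called lay between -0.96 (Has2) and 0.17 (Amh) on the log2 scale. Of these, Kitl was lower on all depleted arrays, at -0.45 (limma adjusted p = 0.0628). The part of such cells in the results below was not tested. The transcript of Ctcf had signals of 700 to 877 on wild-type and 7.07 to 61.1 on depleted arrays for its dimmer probe set, and the highest depleted value was that of replicate 5.

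GPI synthesis starts on the cytoplasmic face of the endoplasmic reticulum, where a multi-subunit transferase adds N-acetylglucosamine to phosphatidylinositol. Piga is the catalytic subunit of that enzyme, and Pigc, Pigh, Pigp and Pigq are further subunits of it. After removal of the acetyl group and flipping of the lipid, mannoses and ethanolamine phosphates are added, and a transamidase then transfers the finished anchor to proteins. On the egg surface the sperm receptor Juno, the product of Izumo1r, is a GPI-anchored protein.

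Because CTCF binds DNA, the bases before the start of Pigc are shown beside those of Pigp and Pigq, subunits of the same enzyme that were not called lower. The sequences are from RefSeq (GRCm38.p6), hold the 250 bases before the start, run 5′ to 3′ on the strand of the gene, and lie at chr1:161968938-161969187 (plus strand) for Pigc, chr16:94370331-94370580 (minus strand) for a start of Pigp, and chr17:25941990-25942239 (minus strand) for Pigq. Capitals mark matches on either strand to CCCTC, the repeat that gave CTCF its name, or to AGNNGGCAG, a form of the CTCF core chosen after reading the Pigc bases.
Pigc: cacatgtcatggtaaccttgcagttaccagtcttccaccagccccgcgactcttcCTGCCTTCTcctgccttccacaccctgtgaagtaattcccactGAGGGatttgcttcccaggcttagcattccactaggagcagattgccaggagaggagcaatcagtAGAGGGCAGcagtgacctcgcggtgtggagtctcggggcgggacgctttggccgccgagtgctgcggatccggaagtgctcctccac
Pigp: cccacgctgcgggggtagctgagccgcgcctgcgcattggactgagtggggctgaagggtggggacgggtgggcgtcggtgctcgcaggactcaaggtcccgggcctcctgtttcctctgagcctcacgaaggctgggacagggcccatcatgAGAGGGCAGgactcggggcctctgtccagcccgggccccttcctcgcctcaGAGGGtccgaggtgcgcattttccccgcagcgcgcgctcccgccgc
Pigq: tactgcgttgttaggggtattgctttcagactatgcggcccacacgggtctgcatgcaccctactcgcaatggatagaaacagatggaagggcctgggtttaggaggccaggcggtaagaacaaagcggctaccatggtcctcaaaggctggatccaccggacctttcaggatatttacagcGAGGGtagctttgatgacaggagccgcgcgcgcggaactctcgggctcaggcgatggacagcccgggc

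Of the 10 genes, 8 had windows in the RefSeq table, and Pigk and Pigm did not match. The 8 genes had 12 windows in all, 4 of them at Pigp. CCCTC stood in 9 of the 12 windows, those of 5 of the 8 genes, beside 60.5% of 32851 windows of the same length over all genes. The windows of Piga, Pigh and Pigl held no match to CCCTC or to AGNNGGCAG. Piga and Pigh are, like the printed Pigp and Pigq, subunits of the first enzyme that were not called lower. The 12 windows are not separate sequences, since those of Pigt overlap and hold the same CCCTC matches, and some of those of Pigp overlap. The longer AGNNGGCAG stood in 2 of the 12 windows, that of Pigc and the printed one of Pigp, beside 8.46% of all windows. Its match at Pigc is given by the choice of the motif from those bases. Pigc held it at 2 places, and its match closer to the start, AGAGGGCAG, overlaps a CCCTC on the other strand and is the same 9 letters as the match in the Pigp window. These matches describe letters and show no binding.

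Pigc signal was much lower in depleted oocytes. On its brighter probe set (1424189_at) the wild-type arrays, replicates 1 to 5, read 768, 680, 686, 777 and 732, and the depleted arrays read 162, 157, 149, 152 and 223. Every depleted array lay far below every wild-type array, and depleted replicate 5 stood above the other 4. The means were 729 ± 45.0 and 169 ± 30.7 (SD, n = 5), so 23.2% of the wild-type signal was present. The log2 fold change, depleted over wild type on the scale log2(signal + 2.47), was -2.11 ± 0.10 (SE), the ninth lowest of 13811 genes, and it ran from -2.21 to -2.07 when single arrays were left out. In bulk RNA of this kind, fewer cells with the transcript and less of it per cell cannot be told apart. The other Pigc probe set (1424190_at) was not above the control level on any of the 10 arrays, at 4.46 ± 3.06 and 4.17 ± 3.57, so the fall was read on a single probe set.

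**Figure D1:**
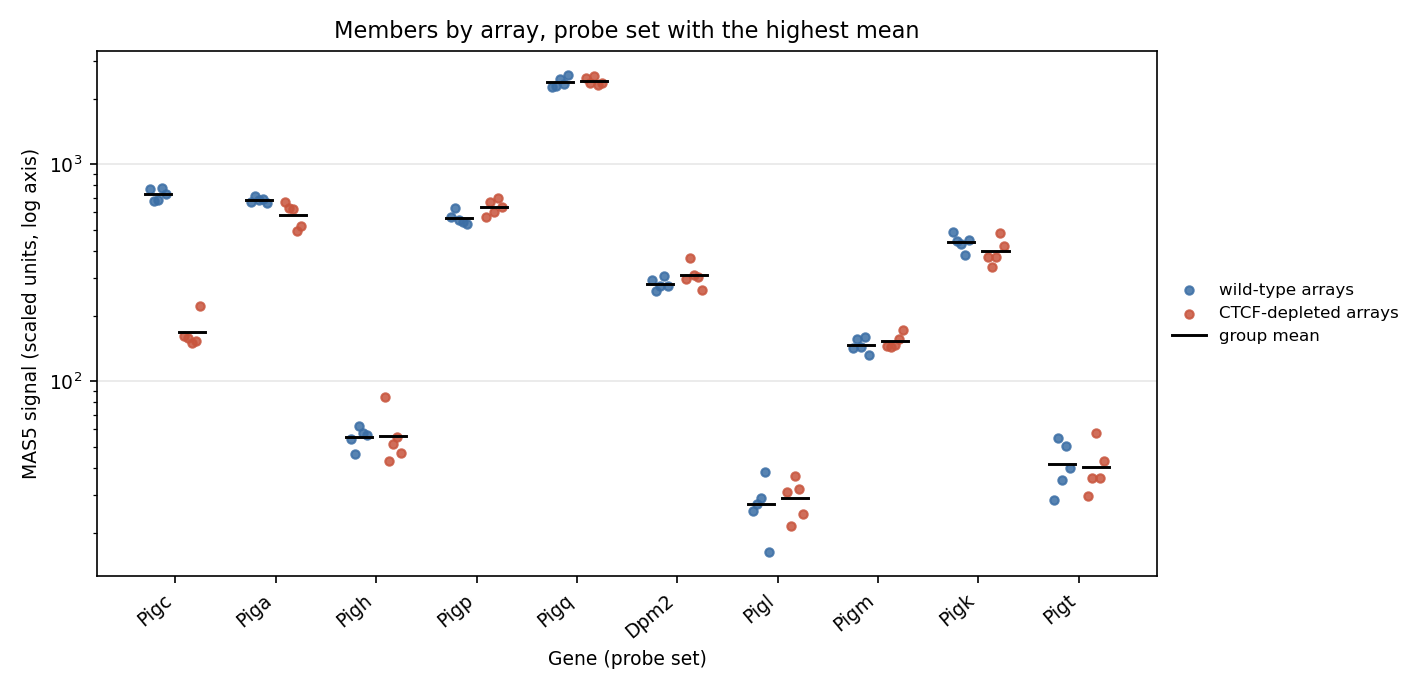
MAS5 signal (log axis) of each of the 10 genes on each of 5 wild-type and 5 CTCF-depleted arrays, each gene by its brightest probe set; points are arrays and bars are group means. Pigc, chosen for its fall, lies at 680 to 777 on wild-type and 149 to 223 on depleted arrays.

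The depleted array with most Pigc signal was also the one with most Ctcf signal. Depleted replicate 5 read 223 for Pigc and 61.1 and 95.8 for the dimmer and brighter Ctcf probe sets. The other 4 depleted arrays read 149 to 162 for Pigc, 7.07 to 14.2 for the dimmer Ctcf probe set and 16.7 to 29.3 for the brighter. With 5 arrays in the group, no relation between the values was tested. Replicate 5 also had the largest share of probe sets above its control level, 62.9%, against 49.4% to 55.6% on the other depleted arrays. That share was counted over a lower level, since its control level was 4.75, against 6.88 to 10.9 on the other depleted arrays.

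A probe set was called where its adjusted p in limma, adjusted by Benjamini-Hochberg across the 27022 that were tested, was under 0.05. With Pigc left out, 0 of the 18 tested probe sets of the other 9 genes were called lower and 0 higher, beside 7.12% lower and 5.48% higher among all tested probe sets. At an unadjusted p under 0.05 in the same limma fit there were 3 of the 18 (16.7%), beside 25.4% of all probe sets. The median log2 fold change of the 9 genes, each by its brightest tested probe set, was 0.014, within a range of -0.23 to 0.17, and the median over all tested genes was -0.017. Pigc lay 2.12 below the median of the other 9 on the log2 scale. Since Pigc was chosen for its fall and the comparison was known when the genes were listed, these counts and this gap are descriptions. Of the 25 probe sets, 17 were above the control level on all 10 arrays and 6 were too dim to be tested: 1 each of Pigc, Pigh, Pigl and Pigt and 2 of Pigq.

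**Figure D2:**
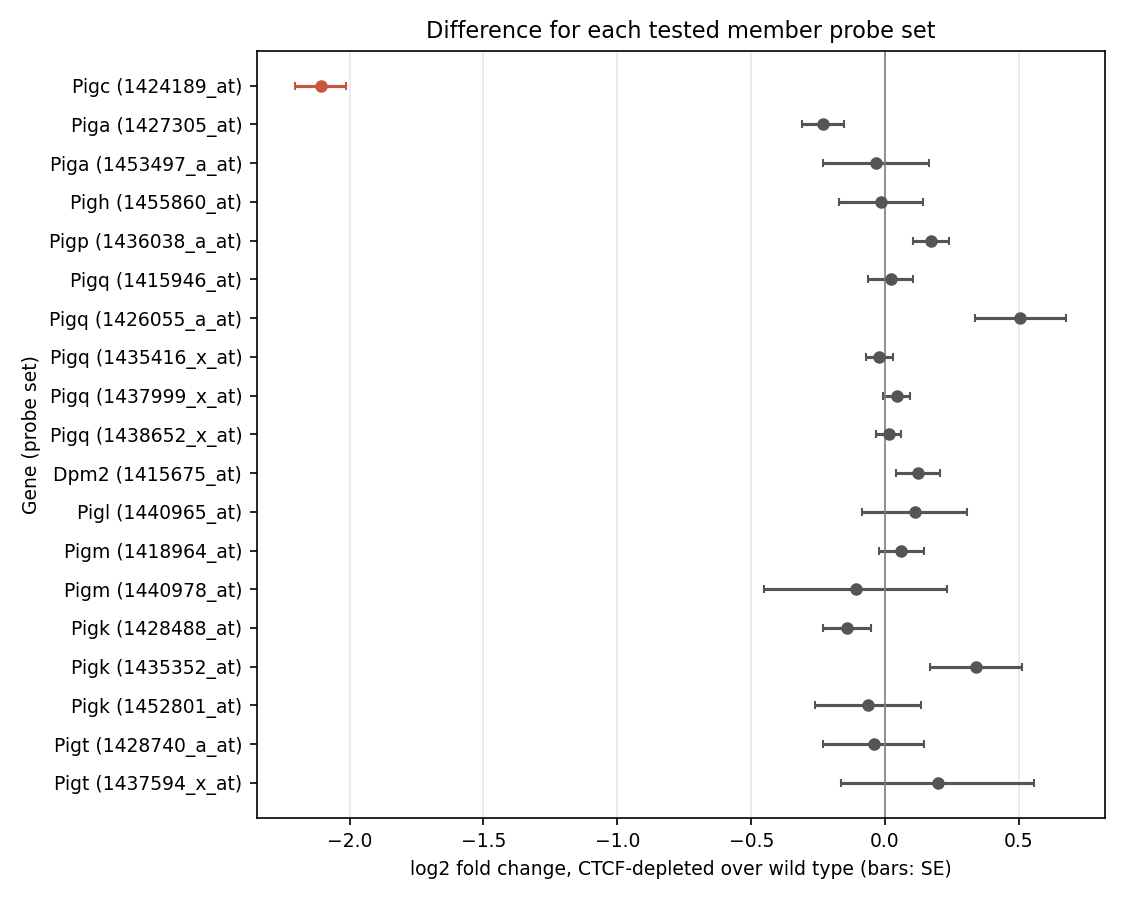
The log2 fold change, CTCF-depleted over wild type, of each of the 19 tested probe sets of the 10 genes, with its SE as bars. Pigc (red), chosen for its fall and shown as a description, lies at -2.11, and the other 18 lie between -0.23 and 0.51.

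Piga, the catalytic subunit of the first step, had a somewhat lower mean signal in depleted oocytes that did not pass the threshold. Its brighter probe set (1427305_at) read 671, 713, 686, 691 and 659 on wild-type replicates 1 to 5 and 668, 630, 624, 491 and 517 on depleted replicates 1 to 5. Depleted replicate 1 fell among the wild-type values, and replicates 4 and 5 were the lowest. The log2 fold change was -0.23 ± 0.08 (SE), with a 95% interval of -0.40 to -0.07 and an adjusted p of 0.0629 (limma). Without depleted replicate 1 the adjusted p was 0.0251, and without depleted replicate 2 it was 0.0445, and among probe sets with a mean signal of at least 50 it was 0.0453, so the call depended on single arrays and on settings. The dimmer Piga probe set (1453497_a_at), at 20.9 ± 3.86 and 20.7 ± 5.45 (SD, n = 5), had a log2 fold change of -0.035 ± 0.20 (SE).

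Pigp, a small subunit of the same transferase, had a somewhat higher mean signal. It read 569.5, 630, 554, 539 and 529 on wild-type replicates 1 to 5 and 572, 671, 603, 698 and 635 on depleted replicates 1 to 5. The groups overlapped, since wild-type replicate 2 lay above 2 of the depleted arrays. On the log2 scale the difference was 0.17 ± 0.07 (SE; limma adjusted p = 0.116), with an unadjusted 95% interval of 0.03 to 0.31.

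Pigq, which holds the transferase together, was measured by 5 tested probe sets that did not all give the same size of difference. The 3 brightest, whose names end in x_at because some of their probes can match other sequences, had wild-type means of 1909 to 2398 and log2 fold changes of -0.022, 0.043 and 0.014. A further probe set (1415946_at) had 698 ± 89.5 and 705 ± 52.9 (SD, n = 5). The dim probe set 1426055_a_at ranged from 19.6 to 25.5 with a median of 22.2 on wild-type arrays and read 37.4, 39.5, 20.9, 36.7 and 32.6 on depleted replicates 1 to 5. On it 4 depleted arrays lay above all wild-type arrays and replicate 3 lay among them. Its log2 fold change was 0.51 ± 0.17 (SE; limma adjusted p = 0.0647), and the adjusted p was 0.0086 without depleted replicate 3, 0.0438 with arrays centred on their medians and 0.0464 after quantile normalization.

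Pigh, a cytoplasmic partner of Piga, read 53.9, 46.2, 62.4, 58.1 and 56.6 on wild-type replicates 1 to 5 and 84.5, 42.9, 51.6, 55.3 and 46.7 on depleted replicates 1 to 5. Apart from the high depleted replicate 1, the depleted values lay at or below the middle of the wild-type values. The log2 fold change was -0.015 with a 95% interval of -0.34 to 0.31, so the values do not tell no change from a change within that interval. Dpm2, which joins the transferase and also belongs to the enzyme that makes the mannose donor, read 292, 260, 276, 304 and 275 on wild-type replicates 1 to 5 and 295, 370, 309, 303 and 264 on depleted replicates 1 to 5. Depleted replicate 2 was the highest of the 10 arrays, and the groups overlapped. Its log2 fold change was 0.12, with a 95% interval of -0.05 to 0.30.

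The later enzymes Pigl and Pigm were not called. Pigl, the deacetylase of the next step, had a range of 16.3 to 38.2 with a median of 27.1 on wild-type arrays and of 21.6 to 36.6 with a median of 30.8 on depleted arrays. Its log2 fold change was 0.11, with a wide 95% interval of -0.31 to 0.53. Pigm, which adds the first mannose, read 142, 156, 144, 161 and 132 on wild-type replicates 1 to 5 and 146, 144, 147, 157 and 173 on depleted replicates 1 to 5. Only depleted replicate 5 exceeded the wild-type range, and the log2 fold change was 0.061, with a 95% interval of -0.12 to 0.24. The other, dim Pigm probe set (1440978_at) had 11.7 ± 5.66 and 9.41 ± 2.28 (SD, n = 5) and a log2 fold change of -0.11.

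Pigk and Pigt are subunits of the transamidase, Pigk being the protease-like subunit that cuts the protein before the anchor is joined. Pigk on its brightest probe set (1428488_at) read 486, 445, 430, 383 and 445 on wild-type replicates 1 to 5 and 375, 337, 373, 484 and 421 on depleted replicates 1 to 5. The lowest 3 arrays were depleted ones, and depleted replicate 4 was close to the highest wild-type array. This gave a log2 fold change of -0.14 ± 0.09 (SE; limma adjusted p = 0.352), while the dim Pigk probe sets, at wild-type means of 19.5 and 17.5, gave 0.34 and -0.063. Pigt on its brightest probe set (1428740_a_at) ranged from 28.3 to 54.6 on wild-type and from 29.5 to 57.5 on depleted arrays, with a log2 fold change of -0.043 and a 95% interval of -0.44 to 0.36.

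The rest of the pathway was followed in a list of 21 genes on the array, 20 of them bright enough to be tested. Of these, 2 rose and 1 fell in limma with Benjamini-Hochberg adjustment (10% and 5%), beside 7.26% higher and 9.12% lower among all 13811 tested genes. The median log2 fold change of the 20 genes was -0.034, beside -0.017 for all genes. Fits that each lacked a single array called 1 to 2 genes higher and 0 to 1 lower.

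Pigo, which adds ethanolamine phosphate to the third mannose, the group through which the anchor is joined to protein, rose on all 3 of its probe sets. On the brightest (1437142_a_at) it read 714, 769, 747, 774 and 799 on wild-type replicates 1 to 5 and 1130, 1031, 1039, 1024 and 1007 on depleted replicates 1 to 5. Every depleted array was above every wild-type array. This was a 1.37-fold rise, a log2 fold change of 0.46 ± 0.05 (SE; limma adjusted p = 1.35e-05), with 0.57 and 0.47 on the other probe sets. Pigf, the partner of Pigo, was not called, at 3182 ± 128 and 3058 ± 60.3 (SD, n = 5) and a difference of -0.057 ± 0.04 (SE) on the log2 scale.

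Pigyl, a gene named for its likeness to subunit Y of the first transferase, fell. It read 688, 640, 724, 657 and 709 on wild-type replicates 1 to 5 and 589, 653, 587, 452 and 503 on depleted replicates 1 to 5. Depleted replicate 2 lay within the wild-type range, and the other 4 lay below it. Its log2 fold change was -0.31 ± 0.08 (SE; limma adjusted p = 0.0231). It was not called without depleted replicate 4 or 5 or wild-type replicate 3 or 5, where the adjusted p was 0.0563 to 0.0614, nor with arrays centred on their medians, where the adjusted p was 0.138, without the intensity trend (0.0916) or with the 3-prime to 5-prime signal ratio of the Actb and Gapdh controls in the model (0.0649).

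Pgap6, a lipase that acts on GPI-anchored proteins, rose from 219 ± 8.62 to 263 ± 16.4 (SD, n = 5). Wild-type arrays ranged from 209 to 229 and depleted arrays from 250 to 291, with no overlap. The rise was 0.26 ± 0.07 on the log2 scale (SE; limma adjusted p = 0.0185), but the adjusted p was 0.0519 without depleted replicate 3 and 0.0504 without wild-type replicate 2. Its other probe sets gave 0.20 and -0.49, the latter dim, with 3 wild-type and 0 depleted arrays above the control level.

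Among transamidase partners, neither Pigs, at a log2 fold change of -0.0066, nor Pigu, at -0.036, was called. Gpaa1, a further subunit, had 59.4 ± 6.27 and 57.6 ± 12.0 (SD, n = 5) on its brightest probe set and was not called there. Its probe set 1438152_at, singled out after its values were seen, read 62.6, 58.2, 52.8, 25.5 and 28.4 on wild-type replicates 1 to 5 and 7.45, 11.1, 11.9, 17.6 and 12.7 on depleted replicates 1 to 5. The depleted arrays were all lower, the wild-type arrays were spread over a wide range, and the log2 fold change was -1.67 ± 0.25 (SE; limma adjusted p = 0.000229). The probe sets of Gpaa1 thus disagreed, and the remaining probe set, at 14.2 ± 7.78 and 12.3 ± 3.08, gave -0.026. Pigx, the partner of Pigm, was at -0.082 and was not called.

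**Figure D3:**
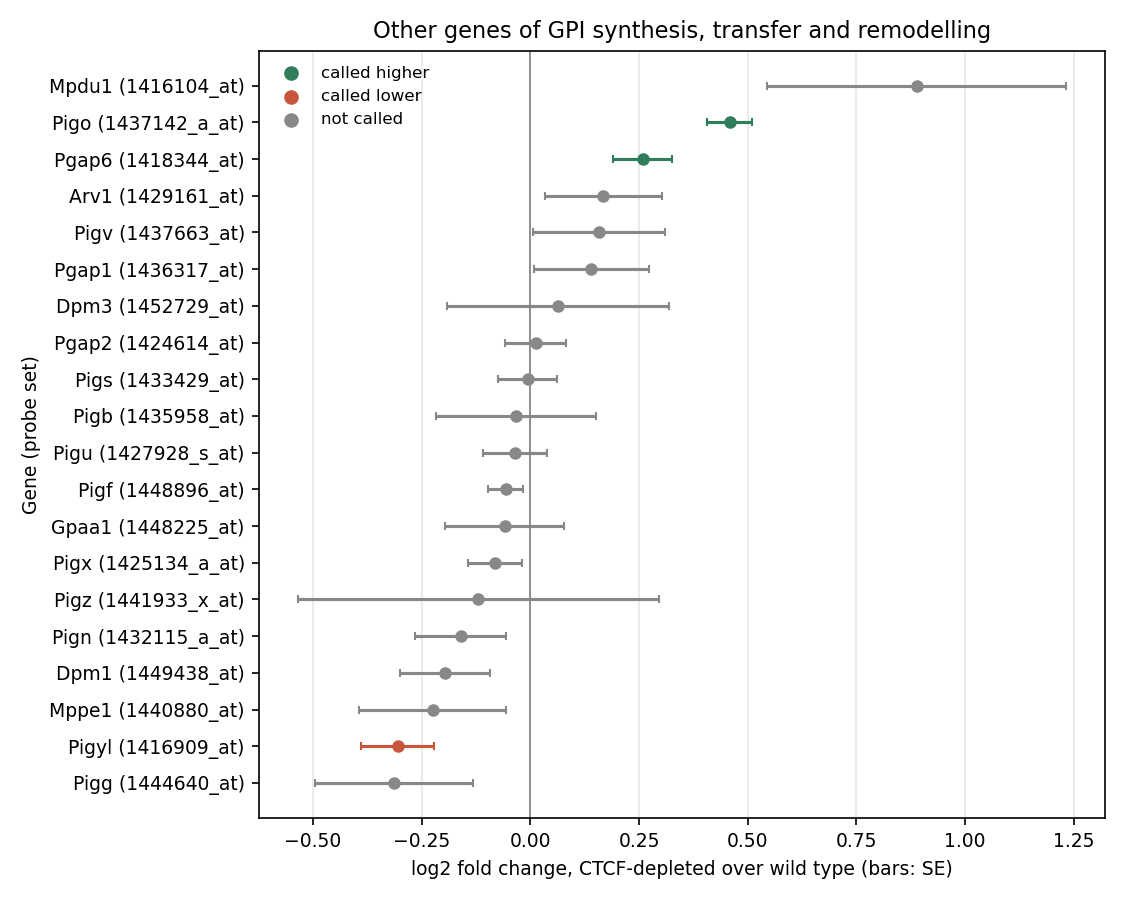
The log2 fold change, CTCF-depleted over wild type, of 20 other genes of GPI synthesis, transfer and remodelling, each by its brightest tested probe set and with its SE as bars. Pigo and Pgap6 (green) were called higher at 0.46 and 0.26 and Pigyl (red) lower at -0.31; Mpdu1 has the highest value, 0.89, at a dim signal and was not called.

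Proteins that carry the anchor were followed in a list of 70 genes on the array, of which 44 were bright enough to be tested. In limma with Benjamini-Hochberg adjustment 2 rose and 4 fell (4.55% and 9.09%), beside 7.26% and 9.12% of all tested genes. The median log2 fold change was -0.11, beside -0.017 for all genes. In fits that each lacked a single array, 0 to 2 were called higher and 3 to 5 lower.

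Izumo1r, which encodes Juno, fell slightly. It read 1341, 1258, 1233, 1263 and 1343 on wild-type replicates 1 to 5 and 1099, 1217, 1104, 1045 and 1171 on depleted replicates 1 to 5. All depleted arrays were lower, with depleted replicate 2 close to the lowest wild-type array. The fall was small, with a log2 fold change of -0.19 ± 0.05 (SE; limma adjusted p = 0.0212), on a probe set whose name ends in s_at because its probes can match several transcripts. Without wild-type replicate 1 or 5 or depleted replicate 4 the adjusted p was 0.0531 to 0.0619, and with arrays centred on their medians the log2 fold change was -0.11 and the adjusted p 0.42. Without the intensity trend the adjusted p was 0.0862.

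Lypd3, an adhesion protein of the Ly6 family, fell 1.21-fold from 1175 ± 66.8 to 968 ± 53.0 (SD, n = 5), with wild-type arrays at 1079 to 1257 and depleted arrays at 902 to 1049. Its adjusted p was 0.0026 (limma), and 0.151 with arrays centred on their medians. Cd59a, an inhibitor of complement, fell 1.83-fold from 56.2 ± 6.78 to 29.6 ± 4.41, whereas the uncalled second probe set was at -0.22 on the log2 scale. Efna1, an ephrin ligand, fell 1.38-fold, from a range of 105 to 164 to one of 90.1 to 104, so that the groups lay just apart.

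The rises were in Gfra1 and Ly6e. Gfra1, a coreceptor for the growth factor GDNF, rose 1.24-fold from 273 ± 25.3 to 339 ± 30.1 (SD, n = 5; limma adjusted p = 0.0180), and its other probe sets gave log2 fold changes of 0.33 and -0.14. It was not called without wild-type replicate 5 (adjusted p = 0.0527), with the 3-prime to 5-prime ratio in the model (0.0848) or without the intensity trend (0.0557). Ly6e, a Ly6 family protein, had a dim probe set at -0.34 on the log2 scale that was not called. On its brightest probe set it rose 1.21-fold with overlapping groups (limma adjusted p = 0.0310). Leaving out wild-type replicate 2, 4 or 5 or depleted replicate 3, 4 or 5 ended that call, with adjusted p-values of 0.0599 to 0.0912, and so did leaving out the intensity trend (0.0818). Cd55, a complement regulator, and Hyal2, a hyaluronidase, differed by 0.066 and 0.12 on the log2 scale, without a call. The other Cd55 probe sets gave -0.28 and 0.063 and were not called.

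**Figure D4:**
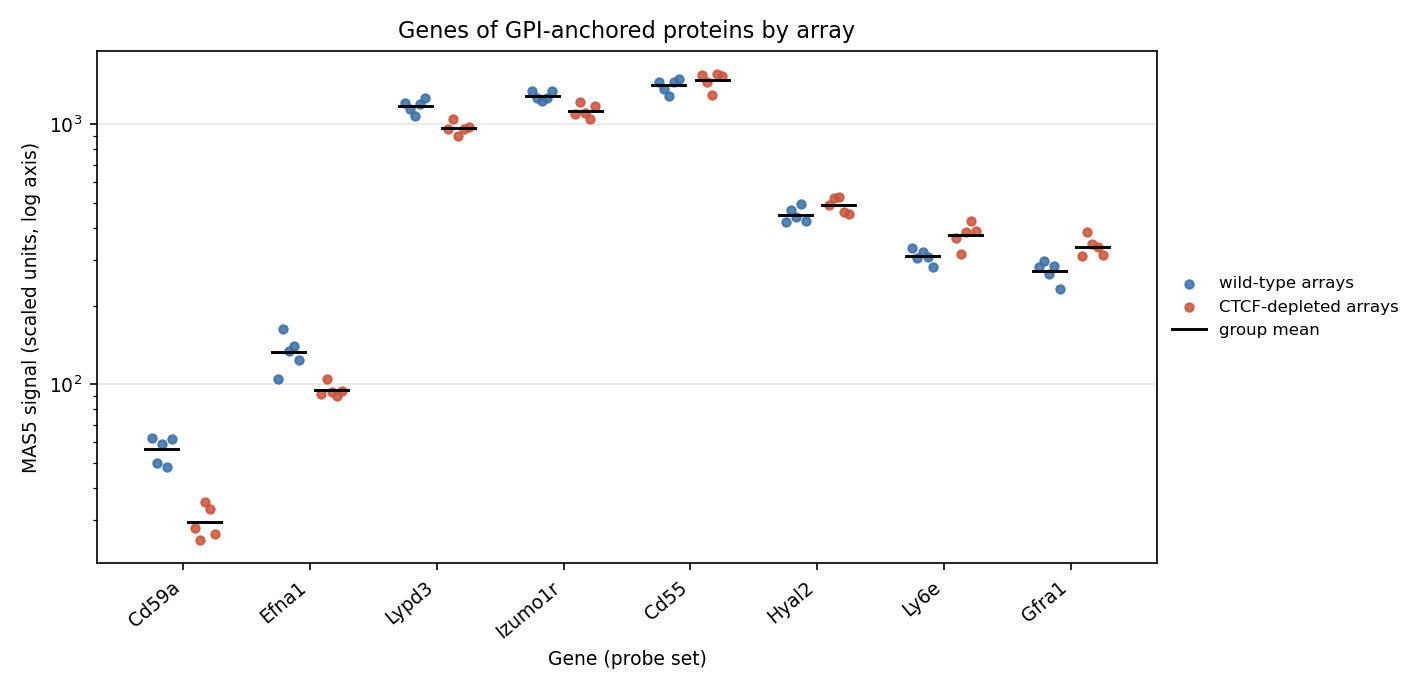
MAS5 signal (log axis) of 8 genes of GPI-anchored proteins on 5 wild-type and 5 CTCF-depleted arrays, ordered by log2 fold change, with points for arrays and bars for group means: the 6 called genes and Hyal2 and Cd55. Cd59a shows the widest gap, from 56.2 to 29.6, and Izumo1r and Lypd3 differ by 1.14-fold and 1.21-fold.

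The genes beside Pigc on its chromosome were found in RefSeq's list of genes (GRCm38.p6), which served only for their order. The nearest with a probe set were Suco and Fasl on the side before Pigc, Dnm3 and Eef1aknmt after it, and 4930558K02Rik, whose span overlaps that of Pigc. Suco was bright on 4 tested probe sets, with log2 fold changes from -0.097 to 0.049, and its brightest had a 95% interval of -0.22 to 0.024. Dnm3, a dynamin, gave 0.25, -0.38 and 0.10 on its 3 tested probe sets, and on the dimmest of these all depleted arrays (8.81 to 10.4) lay below all wild-type arrays (11.4 to 14.9) without passing the threshold (limma adjusted p = 0.216). Eef1aknmt, at signals of 8.95 ± 2.12 and 7.23 ± 1.91 (SD, n = 5), was not called, with a difference of -0.23 on the log2 scale. The probe set of 4930558K02Rik was not above the control level on any array, and the Fasl probe sets were above it on at most 1.

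**Figure D5:**
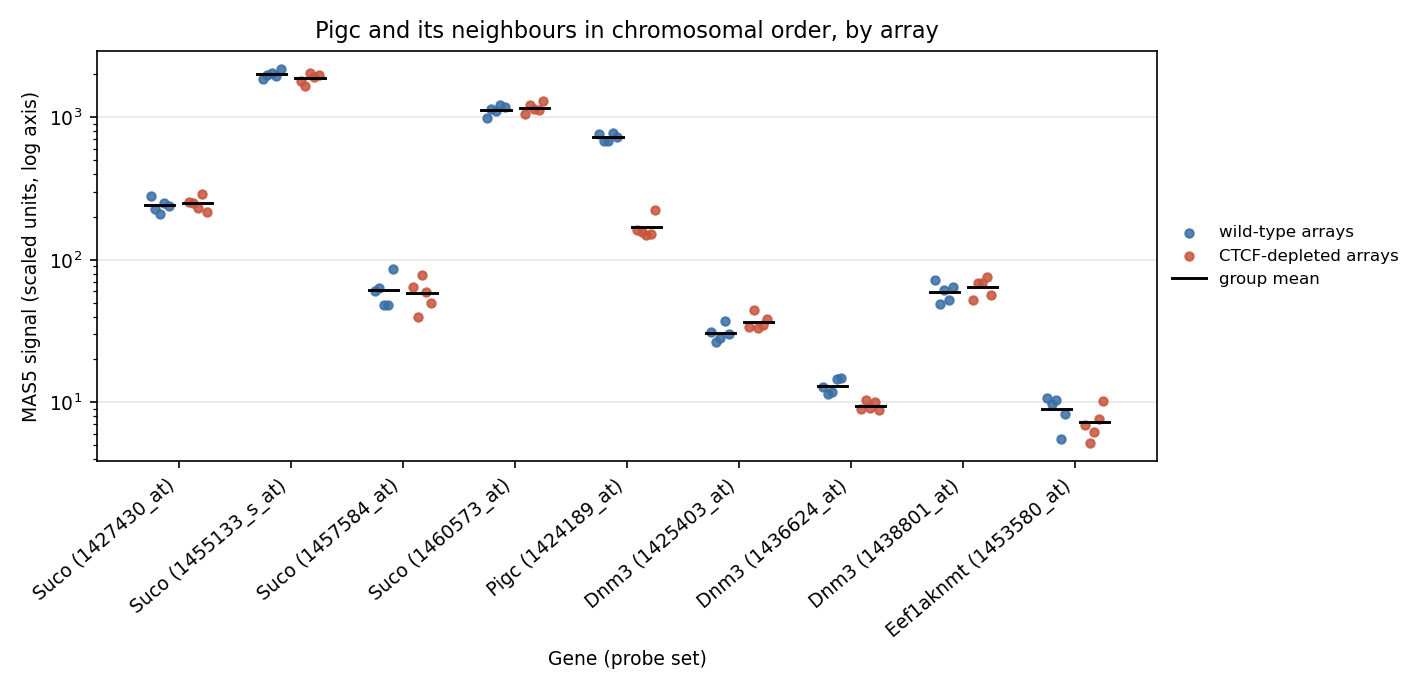
MAS5 signal (log axis) of Pigc and of the tested probe sets of its neighbours in chromosomal order on 5 wild-type and 5 CTCF-depleted arrays, with points for arrays and bars for group means. The groups of Pigc, at 729 and 169 on average, lie far apart, and those of the Suco probe sets overlap.

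The genes whose profile over the 10 arrays was most like that of Pigc were found by the root mean square difference of log2 values, each gene taken relative to its own wild-type mean. They were Xylb, with a difference of 0.14, Plxna2 and Nr2c1 with 0.22 each, Syt7 with 0.24 and Tpm1 with 0.25. Xylb is a xylulokinase, Plxna2 a semaphorin receptor, Nr2c1 an orphan nuclear receptor, Syt7 a calcium sensor of vesicle fusion and Tpm1 a tropomyosin. Because Pigc was chosen for its fall, genes of like profile are genes of like fall, and their values are a description.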

How the data were processed

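Per the labels' protocols, total RNA was purified with a Picopure kit and made into biotin-labelled targets by a small-sample method. The authors deposited linear intensity values, which the submitters' processing notes trace to MAS5; its version was not given in the sources used here. Without the lowest and highest 2% of values, every array had a mean of 150.001, so arrays had been scaled to an equal mean. Dim MAS5 signals are unsteady because mismatch probes are subtracted.

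After 64 control probe sets were left out, signals were put on the scale log2(signal + 2.47), where 2.47 is the 25th percentile of the table and understates changes of dim genes. Probe sets whose mean lay under the 40th percentile (near a signal of 5.13) were dropped. Groups were compared with limma 3.58.1 (R 4.3.3, intensity trend) over 27022 probe sets, and a listed gene stood by its brightest one. The members and lists were chosen with earlier results of these data known. Named from the other lists were the called genes and the 4 with most wild-type signal, besides the neighbours of Pigc and 5 genes of similar profile. Pigs, Pigu, Gpaa1, Mpdu1 and the granulosa markers named fall outside this rule and were picked after their values were seen. The number of arrays limits the precision. Alternatives were other offsets, filters and scalings, no trend, a replicate block, a covariate, means over probe sets and leaving out arrays.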

Additional observations from a re-analysis of the deposited data

Results flagged for a closer look

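Dixon's rule, which compares an extreme array's gap to its neighbour with the range of its group, was applied to 38 groups of 5 arrays (19 tested probe sets of the 10 genes), and chance marks about 1 group in 20. It marked 4. Pigc on depleted replicate 5 read 223, with the nearest depleted array at 162. Pigk on its probe set 1435352_at read 32.4 on depleted replicate 5, with the nearest at 24.1. Pigq on its probe set 1415946_at read 797 on depleted replicate 2, with the nearest at 703. Pigm on its dim probe set 1440978_at read 1.83 on wild-type replicate 4, with the nearest at 12.6.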

How the results depend on the processing

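The fall of Pigc kept its direction under every alternative run, with the smallest log2 fold change, -1.93, at an offset of 32. Its gap to the median of the other 9 genes ran from -2.23 to -2.07 when single arrays were left out, and was -1.95 at that offset. Of the other members' probe sets 0 were called, but 1 was called lower with only probe sets of a mean signal of at least 50 (Piga, adjusted p = 0.0453), and 1 higher under median centring and 1 under quantile normalization (Pigq). Without single arrays, 0 to 1 were higher and 0 to 1 lower. Of the other pathway genes, 0 were called lower with median centring, without the trend and with the covariate, and 2 lower and 1 higher with means over probe sets (Gpaa1 and Pigyl lower, Pigo higher, Pgap6 not called). Of the genes of GPI-anchored proteins, 2 were called lower with median centring, 5 with the covariate and 6 with means over probe sets. Called higher were 3 without the filter, 0 without the trend, 1 with the covariate and 1 with means over probe sets, where neither Gfra1 nor Ly6e was called. Over all genes, 1260 were lower and 1003 higher, or 55.7% lower, and median centring gave 709 and 1418, or 33.3% lower. The covariate gave 1047 lower and 869 higher, and means over probe sets gave 1189 lower and 928 higher. Leaving out single arrays gave 1046 to 1237 lower and 785 to 970 higher.

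Arrays with the same replicate number deviated together weakly at most (correlations of 0.0024 to 0.051 over tested probe sets). For wild-type replicates 3 and 5 the values, 0.049 and 0.051, were above those with depleted arrays of other numbers (at most 0.027 and -0.0046). For replicates 1, 2 and 4 they were not. The labels do not say whether the numbers pair samples, and these values do not decide it. With the replicate number as a block, 1 member probe set was called lower (Piga, adjusted p = 0.0428), and 1298 genes were lower and 1056 higher. Dim probe sets limit what can be seen: 6 of the 25 were too dim to be tested.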
